A study of Homo sapiens with 4 samples.

Results

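The 10 genes described here encode the enzymes that build purine nucleotides from ribose 5-phosphate and carry them to AMP, together with the enzyme that salvages adenine. They were PRPS1, PRPS2, PPAT, GART, PFAS, PAICS, ADSL, ATIC, ADSS and APRT, and all 10 were found among the 25847 genes of the expression table by their gene symbol. Where a symbol stood on several transcript clusters (the array's gene-level probe sets), only its brightest cluster, by the mean of all 4 arrays, was kept. Messenger RNA was compared between 2 arrays of Hut78 cells exposed to ribavirin (50 µM, 120 h) and 2 control arrays of Hut78 cells that received no drug, all on the Affymetrix Human Transcriptome Array 2.0. Hut78 is a single established cell line, derived from a patient's cutaneous lymphoma of T cells, and both groups grew in RPMI medium with 10% fetal bovine serum. The labels give no culture time for the control cells and do not say that the arrays of a group came from separate cultures, so p-values measure only the spread between these arrays, which may be technical.

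In the purine pathway a ring is assembled on an activated sugar, phosphoribosyl pyrophosphate (PRPP), until inosine monophosphate (IMP) is reached. IMP then goes one way to AMP, through ADSS and ADSL, and the other way to GMP, through IMP dehydrogenase and GMP synthetase. Salvage enzymes join free bases to PRPP and so bypass the assembly. Proliferating lymphocytes depend heavily on the assembly route. Ribavirin is a guanosine analogue whose monophosphate inhibits IMP dehydrogenase, the entry to the GMP arm.

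Values are log2 summaries of probe signal. The gene medians of the 4 arrays lay between 4.20 and 4.30. Differences between arrays, taken over all genes, had an SD of 0.19 for the ribavirin pair, 0.18 for the control pair and 0.36 to 0.39 across groups. The T-cell receptor genes CD3D, CD3E, CD3G and CD247 were above the array's background probe sets in both groups, and the T-cell marker CD2 was not. CD4 (4.54 in ribavirin and 5.56 in control cells) and CD7 (4.95 in ribavirin and 5.81 in control cells) reached that range with ribavirin. Of the 8 T-cell markers 6 fell with ribavirin and none rose, and their summed log2 value was 59.8 and 60.1 on the ribavirin arrays and 66.8 and 66.9 on the control arrays. Among markers of other cells, 3 of 3 natural killer and 3 of 3 erythroid genes, 4 of 5 myeloid, 2 of 3 fibroblast, 2 of 4 B-cell and 1 of 4 epithelial genes had control means within the background range. CD79A, a B-cell gene (9.78 in ribavirin and 11.18 in control cells), and the epithelial gene CDH1 (6.89 in ribavirin and 7.75 in control cells) were above it, as was the epithelial gene EPCAM (8.23 in ribavirin and 7.81 in control cells), which did not pass the test. Of the 4 epithelial markers 3 fell, with summed log2 values of 26.5 and 26.6 on the ribavirin arrays and 28.6 and 29.1 on the control arrays, and of the 4 B-cell markers 2 fell (23.4 and 23.6, against 25.2 and 25.3). The B-cell gene MS4A1, within the background range, had a log2 change of 0.41 and did not pass. Of the 5 myeloid markers 1 rose, CD68 (5.54 in ribavirin and 4.89 in control cells, limma adjusted p = 0.015), with a control mean within the background range. COL1A1, 1 of the 3 fibroblast markers, fell within that range (3.95 in ribavirin and 4.32 in control cells, limma adjusted p = 0.0253). The largest fall of a T-cell marker was that of CD5 (7.88 in ribavirin and 10.27 in control cells). Among epithelial markers it was that of KRT8 (6.76 in ribavirin and 8.12 in control cells). The part of these marker shifts in the results below was not tested.

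Of the 10 genes, 3 rose with ribavirin, 2 fell and 5 did not pass the test (limma across all 25847 genes, Benjamini-Hochberg adjusted p under 0.05). In such RNA from a whole culture, a change in the number of expressing cells and a change in RNA per cell cannot be told apart. The genes that rose were APRT, which salvages adenine, PPAT, which catalyses the committed step of the pathway, and PRPS2, one of the PRPP synthetases. PFAS, which acts in the assembly of IMP, and ADSL, which acts both there and in the last step to AMP, fell. Over all genes tested 9.34% rose and 5.88% fell. All 10 genes had control means above the highest background probe set (5.20), and of the 9726 genes for which this held 21.2% rose and 11.8% fell in the same fit. With 10 genes, 3 rises and 2 falls are shares near those of such brighter genes. Both ribavirin arrays lay above both control arrays for 4 of the 10 genes and below them for 3, against 24.1% and 35.8% of all genes. Those shares include the dim genes, and the shares among brighter genes were not counted. The median log2 change of the 10 genes was 0.04, beside -0.05 over all genes tested and 0.05 over the 9726 brighter genes. The called genes moved in both directions.

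**Figure D1:**
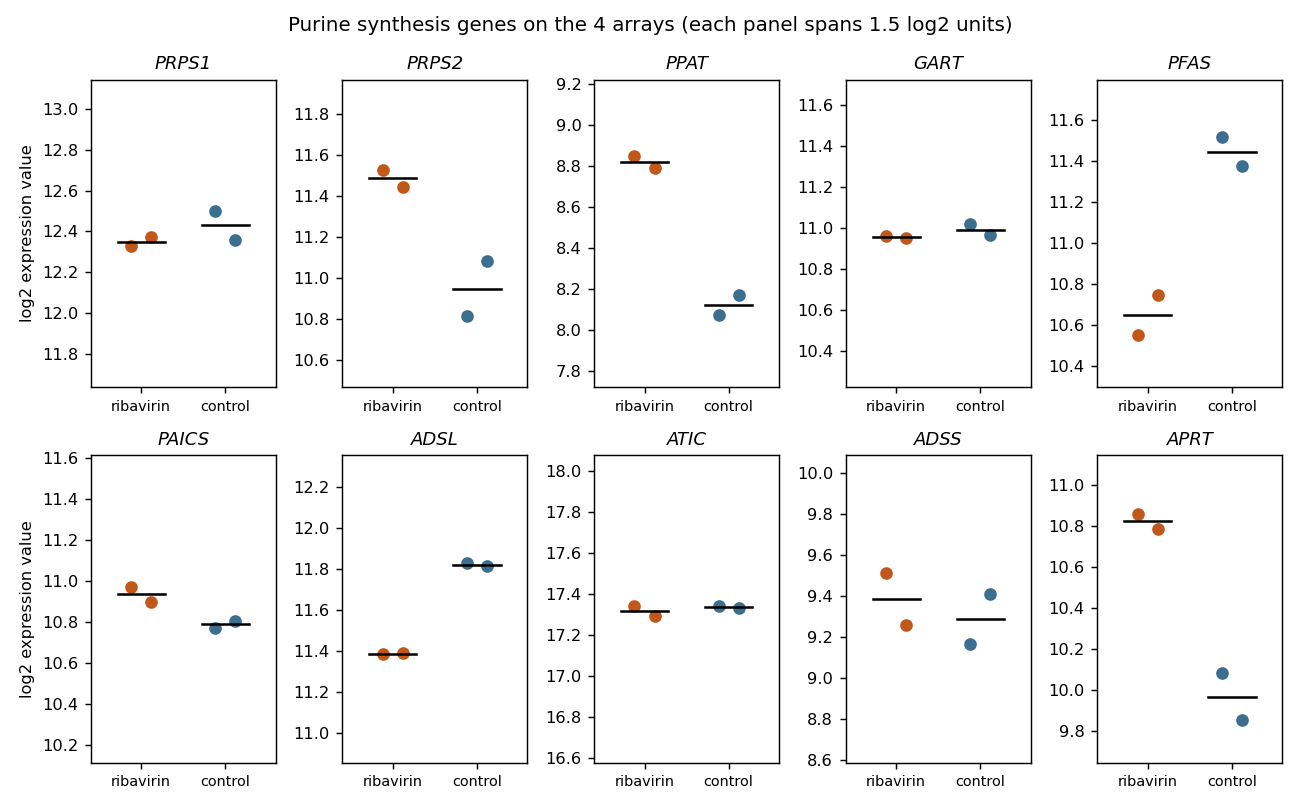
Log2 expression value of each of the 10 genes (vertical axis) on the 2 ribavirin arrays (left, orange) and the 2 control arrays (right, blue), with a bar at each group mean. The groups stand clearly apart for PRPS2, PPAT, PFAS, ADSL and APRT, while the arrays overlap for PRPS1, ATIC and ADSS. Panels have different levels but each spans the same range, so that distances can be compared between genes and levels cannot.

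PRPP synthetase attaches pyrophosphate to ribose 5-phosphate and supplies the sugar for assembly and salvage alike. Its isozyme PRPS2 (chromosome X) had log2 values of 11.53 and 11.45 on the ribavirin arrays, against 10.82 and 11.08 on the control arrays. Both ribavirin arrays were above both controls, and the control arrays were the pair farther apart. PRPS2 rose by 0.54 (SE 0.11, 95% interval 0.26 to 0.82, limma adjusted p = 0.034), or 1.45-fold, the weakest evidence among the genes that passed.

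The other isozyme, PRPS1 (chromosome X), gave 12.33 and 12.37 on the ribavirin arrays and 12.50 and 12.36 on the control arrays. These arrays overlapped. Its log2 change was -0.08 (95% interval -0.29 to 0.13, limma adjusted p = 0.569), and the interval excludes a change as large as that of PRPS2. The log2 difference PRPS2 minus PRPS1 within an array was -0.80 and -0.93 with ribavirin and -1.68 and -1.28 in control cells, a shift of 0.62 (SE 0.21). With 2 arrays a group an exact two-sided permutation test cannot go below p = 0.333, which was the value here. The 2 isozymes are close in sequence, and whether their probes share targets was not tested. The germ-line isozyme PRPS1L1 was within the background range in both groups. The 2 PRPP synthetase-associated proteins did not pass the test, with log2 changes of -0.15 for PRPSAP1 and 0.20 for PRPSAP2 (limma adjusted p = 0.246 and 0.124).

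PPAT, the amidotransferase, replaces the pyrophosphate of PRPP by an amino group and commits the sugar to purine synthesis. It is inhibited by the purine nucleotides at the end of the pathway. PPAT (chromosome 4) gave 8.85 and 8.79 on the ribavirin arrays and 8.08 and 8.17 on the control arrays. Neither group spread by more than a small part of the gap between them. The gene rose by 0.70 (SE 0.08, 95% interval 0.50 to 0.89, limma adjusted p = 0.00658), or 1.62-fold, and had the smallest p of the 10 genes.

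PPAT starts back to back with PAICS, the gene of a later bifunctional enzyme that carboxylates the imidazole ring and adds aspartate to it. In the RefSeq promoter table (GRCh38.p14) the first transcribed base of PPAT, on the minus strand, and the nearest upstream start of PAICS, on the plus strand, are separated by 136 bases, at chr4:56435616-56435751. That interval is printed because it is shared by a gene that rose and one that did not pass the test. It is read 5′ to 3′ on the PPAT strand, and capitals mark GC boxes (GGGCGG or its reverse complement CCGCCC), the binding letters of the SP1 family.
PPAT-PAICS interval: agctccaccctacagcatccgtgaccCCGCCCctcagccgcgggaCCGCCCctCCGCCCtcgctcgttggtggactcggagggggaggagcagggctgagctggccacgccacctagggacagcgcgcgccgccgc
The interval held 3 GC boxes, which did not overlap. Both genes thus lie beside the same letters.

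PAICS gave 10.97 and 10.90 on the ribavirin arrays and 10.77 and 10.81 on the control arrays. Both ribavirin arrays lay above both controls, by little. The log2 change was 0.15 (95% interval -0.04 to 0.33), which did not pass the test (limma adjusted p = 0.259). PPAT minus PAICS within an array was -2.12 and -2.11 with ribavirin and -2.70 and -2.64 in control cells. The shift was 0.55 (SE 0.03, from these arrays alone and without limma). Its exact permutation p was 0.333, the smallest this design allows. PPAT had passed the test and PAICS had not, so the choice of this pair favoured a shift. RefSeq lists further PAICS starts, and transcripts from them cannot be told apart in a gene-level value.

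Promoter windows (250 bases before to 50 after a start) were present for 9 of the 10 genes, in 14 windows, with ADSS listed under its current symbol ADSS2. The GC box was found in 11 of the 14 windows, at least 1 for each of the 9 genes, and in 45.0% of all 35116 windows. The E-box CACGTG is its own reverse complement and is bound by MYC with MAX. It was found in 3 of the 14 windows (of PPAT, PAICS and ATIC) and in 7.26% of all windows. The PPAT and PAICS match is 1 and the same site. The PPAT and ATIC sites are shown since they are the upstream matches, with CACGTG in capitals. The PPAT site starts 182 bases before the PPAT start (chr4:56435780-56435809, minus strand) and the ATIC site 46 bases before the ATIC start (chr2:215312001-215312030, plus strand).
PPAT upstream E-box: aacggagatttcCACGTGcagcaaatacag
ATIC upstream E-box: gggccggcgggcCACGTGataagcccggaa
Of these genes, PPAT rose, and PAICS and ATIC did not pass the test. The CCAAT box (CCAAT or ATTGG) was found in 4 of the 14 windows, from 2 genes, PRPS1 and GART, and in 34.6% of all windows. The core of the element bound by ATF4 with C/EBP proteins (TGATGNAA or TTNCATCA) was in no member window and in 3.62% of all windows. A match is a description of letters and shows no binding.

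GART is a trifunctional enzyme that adds glycine, adds the first formyl group and closes the imidazole ring. GART (chromosome 21) gave 10.96 and 10.95 on the ribavirin arrays and 11.02 and 10.96 on the control arrays. The 4 arrays lay within a narrow band. The log2 change of -0.04 (95% interval -0.21 to 0.14, limma adjusted p = 0.771) did not pass; it was 0.03 with median-centred arrays and -0.14 with quantile normalization.

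PFAS uses glutamine to turn formylglycinamide ribotide into the amidine, between the formylation and the ring closure done by GART. PFAS (chromosome 17) gave 10.55 and 10.74 on the ribavirin arrays and 11.52 and 11.37 on the control arrays. Every ribavirin value was well below every control value. PFAS fell by 0.80 on the log2 scale (SE 0.10, 95% interval -1.06 to -0.54, limma adjusted p = 0.00936), which leaves 0.575 of the control level. The cluster kept for PFAS (TC17002044.hg.1) is annotated in the table by an mRNA-like noncoding transcript that carries the PFAS symbol. The cluster annotated by the RefSeq messenger RNA (TC17000136.hg.1) was dimmer, at 9.61 and 9.58 on the ribavirin arrays and 10.11 and 9.99 on the control arrays. It too separated the groups. With it in place of the brighter cluster, an alternative added after the data were seen, the log2 change was -0.46 (limma adjusted p = 0.0212), so PFAS fell by both clusters but by different amounts. The 120 bases before the PFAS start (chr17:8249169-8249288, plus strand, GRCh38.p14) are shown as those of the gene with the largest fall, with the GC box in capitals.
PFAS: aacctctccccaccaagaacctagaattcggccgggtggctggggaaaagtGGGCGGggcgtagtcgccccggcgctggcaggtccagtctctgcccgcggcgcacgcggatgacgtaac

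PFAS minus GART within an array was -0.41 and -0.20 with ribavirin and 0.50 and 0.41 in control cells. The shift was -0.76 (SE 0.11), with the same exact permutation p of 0.333. It was taken with the brighter PFAS cluster. The PFAS cluster of the RefSeq messenger RNA, which changed by less (-0.46), was not compared with GART in this way.

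**Figure D2:**
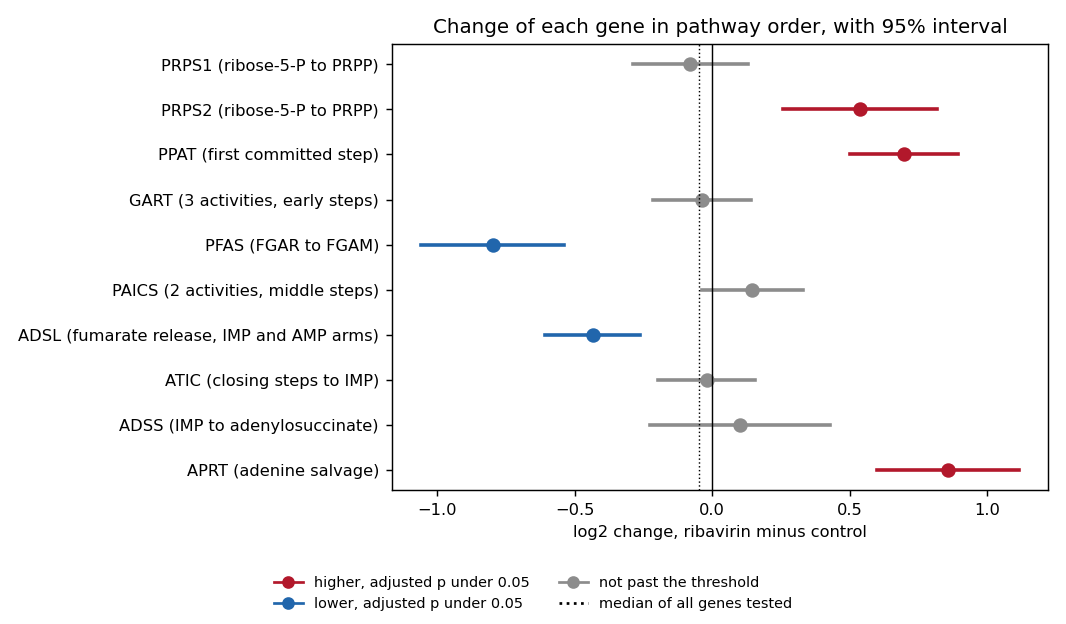
Log2 change (ribavirin minus control, horizontal axis) of the 10 genes in pathway order from top to bottom, with the 95% interval from limma. Red marks genes that rose, blue genes that fell and grey genes that did not pass the test. The dotted line is the median of all genes tested, -0.05. The median of the 9726 genes above background, 0.05, is not drawn. PRPS2, PPAT and APRT lie right of 0 and PFAS and ADSL left of it, while the intervals of PRPS1, GART, PAICS, ATIC and ADSS include 0.

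ADSL, adenylosuccinate lyase, acts in both the assembly of IMP and its conversion to AMP, each time releasing fumarate. ADSL (chromosome 22) gave 11.39 and 11.39 on the ribavirin arrays and 11.83 and 11.81 on the control arrays. The arrays of each group were nearly equal and the groups well apart. ADSL fell by 0.43 on the log2 scale (SE 0.07, 95% interval -0.61 to -0.26, limma adjusted p = 0.0163), which leaves 0.740 of the control level.

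ATIC adds the second formyl group and closes the ring to give IMP. Its kept cluster (TC02003807.hg.1) is again annotated by a transcript with the gene's symbol other than the RefSeq messenger RNA. It gave 17.34 and 17.29 on the ribavirin arrays and 17.34 and 17.33 on the control arrays. The groups overlapped near the top of the scale, whose highest value was 19.93. Ribavirin replicate 1 and control replicate 1 had the same value, 17.3404. ACTG1, the gene at that highest value, gave 19.9315 on both ribavirin arrays and on control replicate 1, and 19.9251 on control replicate 2. Whether changes are compressed at the level of ATIC was not tested. The log2 change of ATIC was -0.02 (95% interval -0.20 to 0.16, limma adjusted p = 0.879). It was 0.04 with median-centred arrays and -0.24 with quantile normalization, which is outside that interval. The RefSeq messenger cluster (TC02001260.hg.1) gave 14.50 and 14.50 on the ribavirin arrays and 14.53 and 14.54 on the control arrays, a change of -0.03 (limma adjusted p = 0.801).

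ADSS couples IMP to aspartate and so opens the AMP arm that ADSL completes. ADSS (chromosome 1) gave 9.51 and 9.26 on the ribavirin arrays and 9.17 and 9.41 on the control arrays. The arrays interleaved. The change of 0.10 (95% interval -0.23 to 0.43, limma adjusted p = 0.652) had the widest interval of the 10 genes, which excludes neither a fall nor a rise within those bounds. It was -0.03 without ribavirin replicate 1, 0.23 without ribavirin replicate 2, -0.02 without control replicate 1, 0.22 without control replicate 2, -0.04 with quantile normalization and 0.16 with median-centred arrays. ADSL minus ADSS within an array was 1.87 and 2.13 with ribavirin and 2.66 and 2.40 in control cells, a shift of -0.53 (SE 0.18; exact permutation p = 0.333). The muscle isozyme gene ADSSL1 was within the background range in both groups.

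APRT joins adenine to PRPP and gives AMP in a single step. APRT (chromosome 16) gave 10.86 and 10.78 on the ribavirin arrays and 10.08 and 9.85 on the control arrays. The lowest ribavirin value was above the highest control value by more than the spread of either group. APRT rose by 0.86 (SE 0.10, 95% interval 0.60 to 1.11, limma adjusted p = 0.0078), or 1.81-fold, the largest change of the 10 genes. The 120 bases before its start (chr16:88811929-88812048, minus strand, GRCh38.p14) are shown for that reason, with 3 GC boxes in capitals.
APRT: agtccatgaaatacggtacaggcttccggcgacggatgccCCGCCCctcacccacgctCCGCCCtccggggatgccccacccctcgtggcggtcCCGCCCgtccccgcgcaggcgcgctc

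HPRT1, the salvage enzyme of hypoxanthine and guanine, gave 11.36 and 11.34 on the ribavirin arrays and 11.01 and 11.11 on the control arrays. Its change of 0.29 did not pass the test (limma adjusted p = 0.0622). APRT minus HPRT1 within an array was -0.50 and -0.56 with ribavirin and -0.93 and -1.26 in control cells, a shift of 0.56 (SE 0.17). Over the 5 pairs compared in this way the exact permutation p was 0.333 each time, before and after Benjamini-Hochberg adjustment. Each pair set a gene that passed the test against a gene that did not. That choice favours a shift, so the shifts add no evidence to the calls.

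Routes that feed the pathway were counted over listed genes, to be read beside the 9.34% of all genes that rose and the 5.88% that fell, or 21.2% and 11.8% of those above background. Of 9 genes of ribose phosphate supply 3 rose and 1 fell, with a median log2 change of 0.11. PGM2, which moves phosphate on ribose 1-phosphate, gave 10.46 and 10.30 on the ribavirin arrays and 9.37 and 9.42 on the control arrays, a rise of 0.98 (SE 0.09, limma adjusted p = 0.0043). The pentose phosphate genes TALDO1 (0.39) and RPE (0.33) also rose (limma adjusted p = 0.0483 and 0.0412). The ribokinase gene RBKS fell by 0.55 on the log2 scale (limma adjusted p = 0.0219), with its ribavirin mean (4.90) within the background range. The phosphogluconate dehydrogenase PGD (-0.36) did not pass (limma adjusted p = 0.0544).

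Assembly of IMP also needs formyl groups carried by folate. Of 12 genes of that supply 2 rose and none fell, with a median of -0.04. MTHFD2, a mitochondrial folate dehydrogenase, gave 15.03 and 14.78 on the ribavirin arrays and 13.08 and 13.13 on the control arrays. The rise was 1.80 (SE 0.10, limma adjusted p = 0.00237), larger than that of any of the 10 purine genes. SHMT2 (0.42) and MTHFS (0.40) had limma adjusted p of 0.0596 and 0.0795, and ALDH1L2 (-0.25) lay within the background range.

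In the guanine branch 1 of 6 genes rose and none fell, with a median of 0.02. That gene was IMPDH2, the main IMP dehydrogenase of proliferating cells, with 11.17 and 11.26 on the ribavirin arrays and 10.34 and 10.34 on the control arrays. Its rise of 0.88 (SE 0.07, limma adjusted p = 0.00407) was close in size to that of APRT. IMPDH1 (-0.03), GMPR (0.15), GMPR2 (-0.17) and GUK1 (0.03) did not pass.

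Among 24 genes of adenine salvage and nucleotide interconversion 2 rose and 6 fell, with a median of -0.04, and 9 were within the background range in both groups. ADA, which deaminates adenosine, gave 5.84 and 5.74 on the ribavirin arrays and 7.26 and 7.14 on the control arrays. It fell by 1.41 on the log2 scale (SE 0.08, limma adjusted p = 0.00237). NT5E, the ecto-enzyme that makes adenosine from AMP, fell by 0.79 on the log2 scale (limma adjusted p = 0.00902), with both group means within the background range, where changes can be compressed. The AMP deaminase gene AMPD3 (-0.34) fell (limma adjusted p = 0.039). The deaminase-like gene ADAL (0.78) and the nucleotidase gene NT5C3A (0.38) rose (limma adjusted p = 0.0147 and 0.0448).

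**Figure D3:**
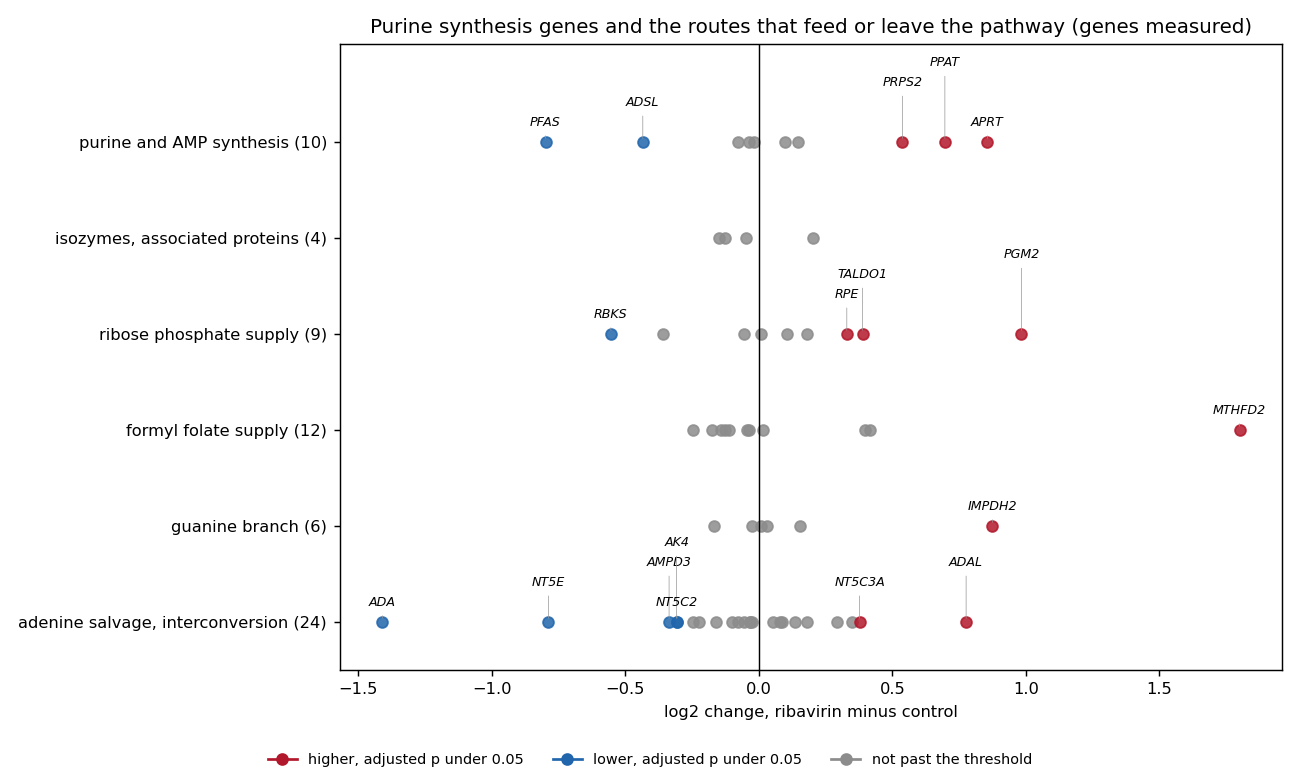
Log2 change (ribavirin minus control, horizontal axis) of the 10 purine and AMP synthesis genes (top row) and of 5 lists of related genes, 1 point a gene, with the number of genes measured in brackets, of which 2 are not drawn. Red points rose, blue points fell and grey points did not pass the test. MTHFD2 at 1.80 and ADA at -1.41 lie outside the range of the 10 synthesis genes.

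The calls rest on all 4 arrays. Without control replicate 1, and likewise without control replicate 2, none of the 10 genes passed, where 0.101% and 0.104% of all genes did. Without ribavirin replicate 1 none passed, against 4.58% of all genes. Without ribavirin replicate 2, 3 passed (PPAT, APRT and PFAS), against 7.74% of all genes. At an adjusted p under 0.01 the same 3 genes passed with all 4 arrays, against 5.08% of all genes. In the 4 fits with 1 array left out, the log2 change lay between 0.65 and 0.74 for PPAT, 0.74 and 0.97 for APRT, 0.40 and 0.67 for PRPS2, -0.90 and -0.70 for PFAS, and -0.44 and -0.43 for ADSL, so the sign of each was the same in every one. The PRPS2 call also ended with quantile normalization (log2 change 0.41, limma adjusted p = 0.0779). No gene of the 5 related lists passed without control replicate 1 or without control replicate 2. Without ribavirin replicate 1 the ribose list had 1 rise and no fall, the folate list 1 rise, and the adenine salvage list 1 fall and no rise. Without ribavirin replicate 2 the ribose list had 1 rise and the adenine salvage list 1 rise and 1 fall. The last list had 4 rises and 2 falls with arrays centred on their median.

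**Figure D4:**
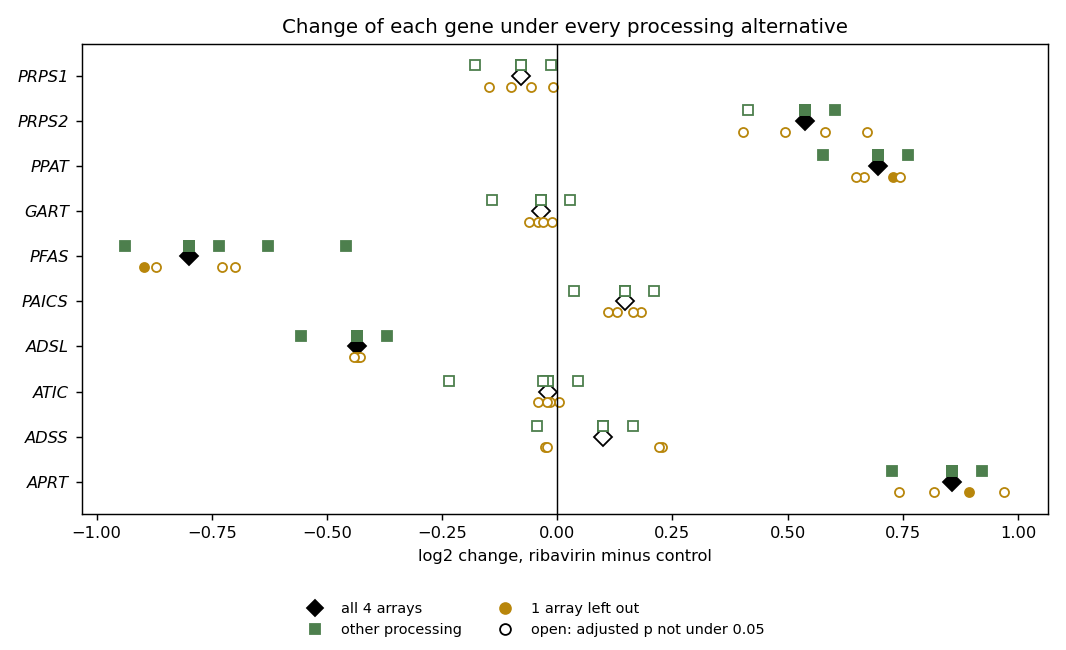
Log2 change (ribavirin minus control, horizontal axis) of each of the 10 genes with all 4 arrays (black diamonds), under other processing (green squares, above) and with 1 array left out (gold circles, below). Filled marks have an adjusted p under 0.05 and open marks do not. PRPS2, PPAT and APRT stay right of 0 and PFAS and ADSL left of it in every setting drawn, while most fits with 1 array left out are open.

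The genes whose 4 values ran most like those of PPAT were found by Euclidean distance over the 4 arrays, after each gene was centred on its own mean, among 8534 protein-coding genes above background. They were EFNB2 (distance 0.019), C5orf15 (0.019) and POC1B (0.022), with log2 changes of 0.68, 0.69 and 0.71. With 4 arrays this likeness reflects little more than a similar change between the groups.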

How the data were processed

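The deposited values are log2 summaries per transcript cluster. SST-RMA is the method in the name of the authors' table, and the submitters' processing notes list RMA and Affymetrix Expression Console, with no version; background steps and filters are not stated there. Such processing equalises arrays and can compress changes near the background. The series matrix held the same numbers (largest difference 0), so it was no alternative. Per the labels' protocols, 100 ng of Trizol-extracted RNA was amplified with a kit made for fixed tissue. Of 67528 clusters, 33444 carried 1 symbol, which gave 25847 genes. Groups came from the sample titles. The comparison used limma 3.58.1 under R 4.3.3 (no covariate, 2 residual and 3.19 prior degrees of freedom, two-sided), tested on simulated data. The number of arrays limits the precision. Background range means at or below the highest background probe set, which averaged 4.95 in ribavirin and 5.20 in control arrays. The members and lists were chosen with earlier results of these data known. All members were named, with up to 5 genes of smallest p from each list and all called genes of counts up to 3, except 2 genes of the related lists, which are counted but not reported here. No genome was used, and promoter letters are RefSeq's (GRCh38.p14). Alternatives were an intensity trend, robust moderation, quantile normalization, median centring, leaving out dim genes, averaged clusters, blocking on the array number, adjusted p thresholds of 0.01 and 0.1, and omitting each array. The clusters of PFAS and ATIC were exchanged after the data were seen. Other background corrections were not run, since scanner values were not used here.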

Additional observations from a re-analysis of the deposited data

How the results depend on the processing

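With all 4 arrays 3934 genes passed. The count ranged from 26 to 2001 with 1 array left out and was 1314 at an adjusted p under 0.01. Of all calls 61.3% were rises, against 73.7% with arrays centred on their median and 49.3% with quantile normalization. With 1 array left out, the purine genes that rose numbered 0 to 2 and those that fell 0 to 1; at an adjusted p under 0.01, 1 fell. Fits with 3 arrays have fewer residual degrees of freedom and assume that a lone array varies like the other group. The median log2 change of the 10 genes was 0.04 in the main comparison, -0.093 with quantile normalization, 0.10 with median centring and -0.035 to 0.093 with 1 array left out, so its sign is not settled. Array numbers are shared between the groups but no label pairs them, and same-numbered arrays did not deviate together (correlation 0.05 across genes). With that number as a replicate block 3340 genes passed, and 2 purine genes rose and 2 fell, with PRPS2 at an adjusted p of 0.0523. Every other alternative run left the calls of the 10 genes as they were, apart from the call of PRPS2 with quantile normalization, those of PRPS2 and ADSL at 0.01, and the fits with 1 array left out. Among the related lists, the ribose list had 1 rise and 2 falls and the adenine salvage list 1 rise with quantile normalization. With dim genes left out the folate list had 4 rises, the ribose list 2 falls and the adenine salvage list 4 rises, and with averaged clusters the folate list had 1 fall and the ribose list 2 rises. At an adjusted p under 0.01 the ribose list had 1 rise and no fall and the adenine salvage list no rise and 2 falls. At 0.1 the ribose list had 2 falls and the folate and adenine salvage lists 4 rises each. With the block, the ribose list had 1 rise and the adenine salvage list 1 rise and 3 falls. Genes within the background range have little signal to show a change.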
